A study of Mus musculus with 4 samples.

Results

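Cytosolic ribosomal proteins are described here across the immune cells of mouse brain and of a mouse glioma. The family was taken from the gene names of the count tables, as every symbol of the form Rpl or Rps followed by a number and at most 1 of the letters a, l, x or y, together with Rplp0, Rplp1, Rplp2 and Rpsa. This gave 81 of 27998 genes, 50 of the large and 31 of the small ribosomal subunit. The letter l admits 5 copies of other members, Rpl3l, Rpl6l, Rpl10l, Rpl39l and Rps27l, and the name rule leaves out some true subunits such as Rps3a1 and Fau. All members except Rpl10l, which had 0 unique molecular identifiers (UMIs, 1 per captured transcript), had at least 50 UMIs. No measured value was used to choose them.

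The study profiled sorted immune cells in 4 droplet libraries (10x Genomics, 3′ end counting), with 1 library per condition and therefore no replicate of any condition. Healthy brain came from C57BL/6 mice without a tumor, whose age the labels do not give. The other libraries came from brains of C57BL/6J mice, aged 8 to 12 weeks at surgery, with the mouse glioma line Glioma-005 in the hippocampus, each a pool of 3 tumors taken at day 35. From day 7 these mice received a rat IgG2a isotype control (clone LTF-2, here IgG), an antibody against CTLA-4 (clone 9H10), or that antibody together with a CD4-depleting antibody (clone GK1.5, here depletion). Sorting took CD45int CX3CR1+ microglia, then from the CD45hi cells the CD11b+ myeloid cells, the CD3+ T cells and the rest, and these were mixed in equal parts, so the number of cells per lineage was set by the sort. Values in groups of 4 below are always in the order healthy brain, IgG, anti-CTLA-4, depletion.

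Each ribosome carries about 1 copy of every ribosomal protein, and their genes are transcribed at high and closely matched levels. Their messenger RNAs start with a run of pyrimidines, the 5′ terminal oligopyrimidine tract (TOP), through which the kinase mTOR and the RNA-binding protein Larp1 control their translation as a group. Quiescent lymphocytes are small cells with little RNA of which ribosomal protein transcripts form a large part, whereas neutrophils shut down much of ribosome production as they mature.

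Pyrimidine runs near the annotated start were more frequent among the members than among protein-coding genes. A run counted here need not begin at the first base of the messenger RNA, so it need not be the tract itself. Of the members, 60 had an entry among RefSeq's mouse promoter windows (GRCm38.p6, 300 bases each). A run of at least 5 C or T bases that starts with C and begins within 20 bases of the start was found in 50 of these 60 (83.3%), against 54.0% of 17491 protein-coding genes. Runs of at least 8 were found in 51.7% and 17.0%, respectively. The motif CCGGAAG, bound by ETS factors, was found on either strand in at least 1 window of 41.7% of these members, against 12.9% of the protein-coding genes. For AAGATGGC, bound by YY1, the shares of genes were 8.33% and 3.57%. The windows below run from 10 bases before the start to 20 bases from it, read 5′ to 3′ on the gene's strand, and capitals mark the longest such run as far as it lies in the window. They belong to Rps18, whose level followed the family closely over the sums though it was lower within the family in neutrophils, and to members described below for their own patterns: Rps18 at chr17:33955646-33955675 (minus strand), Rpl12 at chr2:32961702-32961731 (plus), Rps9 at chr7:3704031-3704060 (plus), Rps27 at chr3:90213629-90213658 (minus) with its paralog Rps27l at chr9:66946076-66946105 (plus), Rps28 at chr17:33824543-33824572 (minus), Rpl15 at chr14:18270967-18270996 (minus), Rpl39l at chr16:10170218-10170247 (plus) and Rpl3l at chr17:24727816-24727845 (plus).
Rps18: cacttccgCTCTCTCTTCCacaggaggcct
Rpl12: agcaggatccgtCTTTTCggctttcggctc
Rps9: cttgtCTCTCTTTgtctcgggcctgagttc
Rps27: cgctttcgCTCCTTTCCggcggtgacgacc
Rps27l: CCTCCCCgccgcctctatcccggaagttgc
Rps28: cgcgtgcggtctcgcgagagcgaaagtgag
Rpl15: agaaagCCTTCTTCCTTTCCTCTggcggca
Rpl39l: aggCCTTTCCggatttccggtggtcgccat
Rpl3l: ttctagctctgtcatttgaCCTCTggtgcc

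The run measured 11 bases at Rps18, 6 at Rpl12, 8 at Rps9, 9 at Rps27 and 17 at Rpl15. Rps27l also had a run of 9 bases, part of it before the printed window, and a CCGGAAG match inside it. Rpl39l had 7 bases and Rpl3l 5, and no run was found in the window of Rps28. The genes shown thus included long runs, short runs and none in these windows. Another RefSeq start of Rps27l and of Rpl3l was not printed.

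After removal of low-quality barcodes and doublets, 8291 cells remained (1388, 1434, 1763 and 3706), with median UMIs per cell from 4359 to 5853. Cells were assigned to a lineage by UMIs of 10 marker genes per lineage, none of them a family member. This placed 83.5% to 92.4% of the cells of a library. The macrophage list includes monocyte genes such as Ly6c2 and Ccr2. At most 6 cell barcodes were shared between any pair of libraries. Xist stood at 2.37 CPM (counts of UMIs scaled to the same total in every sum) in healthy brain and at 769 to 973 CPM in the tumor libraries, and the Y-linked Ddx3y at 68.2 and 0.270 to 2.27 CPM, so that sex, tumor and library cannot be told apart in any comparison with healthy brain.

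The family held 12618683 of 49812489 UMIs. Its share was 16.0%, 26.4%, 26.8% and 27.5% of the UMIs of the 4 libraries. Between genes, levels were compared without division by length, since counting at the 3′ end gives 1 UMI per captured transcript whatever its length. Most members were alike in level: 73 of 81 lay above 1000 CPM, with a median of 3107 CPM. The large subunit gave 55% of family UMIs, and the 10 highest members together gave 22.6%. Highest were Rps29, a small zinc-binding protein of the head of the small subunit, at 7963 CPM, Rps24 at 6900 CPM, Rpl39 at 5895 CPM, Rpl41 at 5550 CPM and Rpl37a at 5470 CPM. The lowest positions were all held by the copies, with Rps27l at 305 CPM, Rpl6l at 15.1 CPM, Rpl3l at 6.30 CPM, Rpl39l at 2.61 CPM and Rpl10l at 0 UMIs. Their parents stood far higher: Rps27 had 16.8 times the UMIs of Rps27l, Rpl6 187 times those of Rpl6l, Rpl3 288 times those of Rpl3l and Rpl39 2259 times those of Rpl39l. Rpl6l is a processed pseudogene in GENCODE vM21. Levels of single members carry a limit: 64 members share at least 1 stretch of 60 bases in the last 200 bases of their transcripts with another annotated gene, in 29 over 50% of such stretches, and in Rpl36a and Rpl6l all of them. How the counting treated such reads is not given in the sources used here.

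The family's share of UMIs ordered the lineages the same way in each library that held them: neutrophils lowest, then microglia, macrophages and NK cells, with T and B cells highest. In neutrophils it was 3.91%, 11.9%, 12.98% and 12.5%, a mean of 10.3% ± 4.3 (SD, n = 4 libraries). In microglia it was 10.6%, 17.1%, 14.97% and 20.9%, a mean of 15.9% ± 4.31 (SD, n = 4). In macrophages it was 20.9%, 23.3%, 21.4% and 26.1%, a mean of 22.9% ± 2.33 (SD, n = 4). Macrophages overlapped neither neutrophils nor microglia over the libraries, although the highest microglial value (depletion) and the lowest macrophage value (healthy brain) were nearly equal, and microglia overlapped neutrophils. NK cells, too few to be counted in healthy brain (4 cells), gave 29.4%, 27.5% and 30.8% in the tumor libraries (29.2% ± 1.66, SD, n = 3). T cells gave 41.5%, 34.3%, 33.01% and 34.7% (35.9% ± 3.82, SD, n = 4), and B cells 27.4%, 35.8%, 39.6% and 36.6% (34.9% ± 5.23, SD, n = 4). T cells lay above B cells in healthy brain and below them in the tumor libraries, and their ranges overlapped, as did those of B and NK cells. Exact Clopper-Pearson 95% intervals of these shares, which cover counting error only, were narrow, as in healthy microglia with 10.58% to 10.64%.

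**Figure D1:**
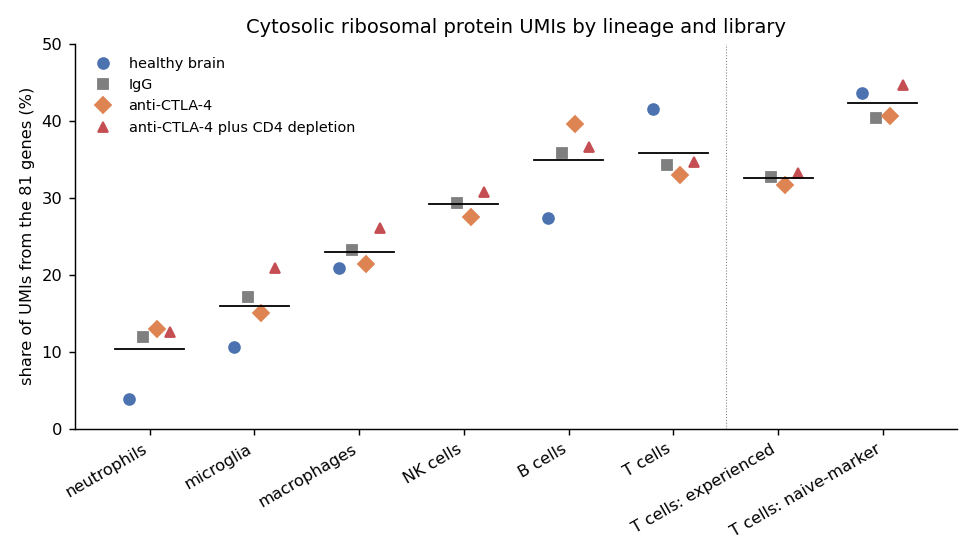
Share of all UMIs (vertical axis, %) that came from the 81 cytosolic ribosomal protein genes, by lineage and, to the right of the dotted line, by T cell state, with 1 symbol per library and a bar at the mean over libraries. Neutrophils lie lowest, between 3.91% and 12.98%, and naive-marker T cells highest, between 40.3% and 44.7%.

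The order was the same with cells thinned to 1000 UMIs, which left out shallower cells (434 of 487 neutrophils with depletion and 243 of 271 microglia with IgG remained). The median share per thinned cell was 3.7%, 9.45%, 8.1% and 10% in neutrophils, 10%, 15.4%, 12.6% and 20.1% in microglia, and 42.2%, 32.4%, 31.1% and 32.9% in T cells. Neutrophils of healthy brain stood apart from those of the tumors. Their 10 neutrophil markers, which include the calprotectin genes S100a8 and S100a9, summed to 357211 CPM against 44694 to 83292 CPM, and with these markers left out of the total the shares became 6.13%, 12.4%, 13.6% and 13.7%. Among B cells, 1 cell in healthy brain and 1 with IgG had over 1% of UMIs from 4 hemoglobin genes, and without those cells the B cell shares were 28.1%, 36.9%, 39.6% and 36.6%. Conventional dendritic cells numbered 7, 6 and 18 in the tumor libraries, under the 20 cells required for a sum, with shares of 29.1%, 29.2% and 29.4%.

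Levels of single members were tested with edgeR's quasi-likelihood test on UMIs summed per lineage and library (23 sums, 10100 genes), with library as a block, called at an adjusted p under 0.05 and at least 1.5-fold. Against the mean of the myeloid lineages, the mean of the lymphoid lineages was higher in 75 of 80 members tested and lower in 1, Rpl3l. Over all genes 21.1% were called higher and 23.9% lower. The median log2 difference was 1.18 over the members and 0.03 over all genes. Rpl12, a protein of the base of the stalk that recruits elongation factors, rose most, by 1.96 on the log2 scale (SE 0.17, adjusted p = 4.5e-09, edgeR), and Rps15a of the small subunit body by 1.77 (SE 0.13, adjusted p = 1.8e-10, edgeR). The members not called were Rpl39l, Rps27l (log2 difference -0.37), Rps9 (0.42) and Rps25 (0.47). With neutrophils left out, an alternative chosen after seeing the data, 61 members were higher and 1 lower. The shares of all genes called in that refit are not given here.

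Taken singly against the mean of the others, T cells were higher in 74 of 80 members and lower in 0 (over all genes 18% and 14.6%). B cells were higher in 69 and lower in 0 (14.1% and 13.9%). At an unadjusted p under 0.05, edgeR had 0 members lower in T cells and 1 in B cells, and DESeq2 called 1 and 0 lower. Neutrophils were lower in 76 members and higher in 1, Rpl3l (19.4% and 20%), and microglia lower in 55 and higher in 1, Rpl39l (17.3% and 28%). Rpl3, which lies at the catalytic centre of the large subunit, fell most in neutrophils, by 2.53 on the log2 scale (SE 0.21, adjusted p = 3.2e-09, edgeR). Macrophages and NK cells lay in the middle. Macrophages were higher in 5 members and lower in 0, with 22% and 13.4% over all genes (1 lower at an unadjusted p under 0.05, and 3 higher and 1 lower with DESeq2). NK cells were higher in 4 and lower in 1 (13.9% and 12.8%).

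These positions depend on which lineages are in the mean. Without neutrophils, B cells were higher in 38 members, T cells in 55, NK cells in 0, macrophages in 3 with 2 lower, and microglia were lower in 75. Library totals in place of TMM scaling moved the median of all genes in microglia from 0.07 to 0.28, with 39 members then called lower. For these refits, too, the shares of all genes called are not given, so the counts cannot be set against them.

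Lists of other genes of protein synthesis were read from the same lymphoid against myeloid fit. Of 8 ribosomal genes outside the name rule, 6 were higher and 0 lower. Among them Rpl22l1, a paralog of Rpl22, was higher by 1.88 on the log2 scale, Rps27rt by 1.28 and Rps3a1 by 1.25. Of 24 translation factors and related TOP genes 15 were higher and 0 lower, with a median log2 difference of 0.87. The nucleolar chaperone Npm1 was higher by 1.45, Eef1g and Eef1d of the elongation complex by 1.41 and 1.19, and Eif3e of the initiation factor eIF3 by 1.27. Of 27 ribosome biogenesis genes 13 were higher and 0 lower (median 0.55). Dkc1 was higher by 1.73, Gar1 by 1.35 and Tsr1 by 1.15, and the transcription factor Myc stood at 20.1 to 68.4 CPM in B and T cells against 0 to 8.65 CPM in macrophages and neutrophils, while microglia, with 15.7 to 31.5 CPM, overlapped the B and T cells. Of 76 mitochondrial ribosomal proteins, which build a separate ribosome, 15 were higher and 0 lower (median 0.31), with Mrps6 (1.97) and Mrps26 (0.96) the largest. All these counts stand beside 21.1% higher and 23.9% lower over all genes. At an unadjusted p under 0.05 edgeR had 3 mitochondrial members lower and 0 of the other 3 lists, and DESeq2 called 0 lower in these 4 lists.

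Of 14 genes that control TOP messengers, 0 were higher and 2 lower, beside 21.1% and 23.9% of all genes. At an unadjusted p under 0.05 edgeR had 1 higher and 5 lower, and DESeq2 called 0 higher and 2 lower. Eif4ebp1, the repressor of cap-dependent initiation that mTOR inactivates, fell by 2.12 on the log2 scale (SE 0.20, adjusted p = 1.1e-08, edgeR). The mTOR inhibitor Deptor had 0 UMIs in T and NK cells of every library and 9.08 to 18.1 CPM in macrophages.

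T cells were divided by markers that hold no family member into naive-marker cells (Ccr7, Lef1, Tcf7 and others) and antigen-experienced cells (Cxcr6, Ccl5, Nkg7, Pdcd1 and others). Naive-marker cells gave the highest shares of any group, 43.6%, 40.3%, 40.7% and 44.7% (42.3% ± 2.15, SD, n = 4; 119, 83, 74 and 109 cells). Experienced cells gave 32.8%, 31.6% and 33.2% in the tumor libraries, below every naive-marker value, and 29.9% in the 15 such cells of healthy brain, too few for a sum. Among naive-marker cells, those with Cd8a or Cd8b1 UMIs gave 44.9%, 46.3%, 44.3% and 45.8%, and those with Cd4 UMIs 43.4%, 32.6% and 37.4% in the libraries without depletion (36, 22 and 15 cells). Among experienced cells of the tumor libraries, those with Cd8a or Cd8b1 UMIs gave 37.4%, 34.5% and 33.3% (48, 120 and 630 cells), and those with Cd4 UMIs 30.9%, 29.6% and 41.4% (102, 143 and 13 cells). Within Cd8 cells every naive-marker value (44.3% to 46.3%) thus lay above every experienced value (33.3% to 37.4%). Within Cd4 cells the naive-marker value was the higher with IgG (32.6% against 30.9%) and with anti-CTLA-4 (37.4% against 29.6%). The latter rests on 15 naive-marker cells, and the 41.4% of experienced Cd4 cells with depletion on 13 cells. Across coreceptors the states overlapped, as the experienced Cd8 cells lay above the naive-marker Cd4 cells with IgG. T cells with a Foxp3 UMI, the marker of regulatory T cells, gave 29.9%, 28.0% and 25.8% in the tumor libraries.

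In the fit of naive-marker against experienced T cells (7 sums, 6411 genes), 28 of 78 members tested were higher and 0 lower, beside 4.77% and 5.74% of all genes. The median log2 difference was 0.53 over the members and 0.01 over all genes, and at an unadjusted p under 0.05 edgeR had 75 higher and 1 lower. DESeq2 called 27 and 0. Rps20 rose most, by 0.88 on the log2 scale (SE 0.08, adjusted p = 3.0e-07, edgeR), followed by Rps29 with 0.83 and Rps19 with 0.81. Most of the other members were higher by less than the 1.5-fold that a call required. Without the depletion library 14 members were called, without IgG 1 member was lower, and with no filter on low counts 17 were called higher and 1 lower. In the lists of other genes, 3 of 8 further ribosomal genes, 1 of 24 translation factors (Eef1b2, 0.59) and 1 of 24 biogenesis genes (Myc, 1.44) were higher, 1 of 9 TOP regulators was lower (Eif4ebp1, -1.04), and of 72 mitochondrial ribosomal proteins 0 were called with edgeR or DESeq2 (4 higher and 6 lower at an unadjusted p under 0.05). DESeq2 did not call the translation factor or the TOP regulator. On simulated counts this fit recovered 40.4% of 2-fold and 85.3% of 3-fold changes.

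Beneath the difference in total, the mean share of most members within the family differed by less than 1.5-fold between lineages. A member's share was expressed per 1000 UMIs of the family. Of 78 members with a value in every lineage, 48 had a highest lineage mean less than 1.5 times the lowest, with a median ratio of 1.41. A ratio of 2 or more was found in 10: Rps27l (5.19), Rpl12 (2.60), Rps9 (2.45), Rpl3 (2.33), Rpl10a (2.25), Rps27 (2.19), Rps25 (2.15), Rps20 (2.14), Rpl10 (2.01) and Rplp1 (2.01). Neutrophils held the highest or the lowest mean in 8 of these, all but Rpl10 and Rplp1.

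Across the 23 sums, the level of a member (log2 CPM) followed that of the rest of the family with a median Pearson r of 0.974 over 77 members, and 63 had an r of at least 0.95. Rps18 (0.994) and Rpl19 (0.993) were among those that followed it most closely. Rps27l was far from all others at 0.137, and the next were Rps9 (0.809), Rps27 (0.859), Rps28 (0.885) and Rpl15 (0.887). Of 718 other genes that, like these members, had at least 20 UMIs in every sum, 5 reached 0.95. They were Rps3a1 (0.99), Eef1b2 (0.977), Naca (0.973), Gnb2l1 (0.970), which encodes the ribosomal protein Rack1, and Npm1 (0.959). The median of the 718 genes was 0.03. Depth above that floor was not matched between members and other genes. These correlations describe the sums, which share libraries and lineages.

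**Figure D2:**
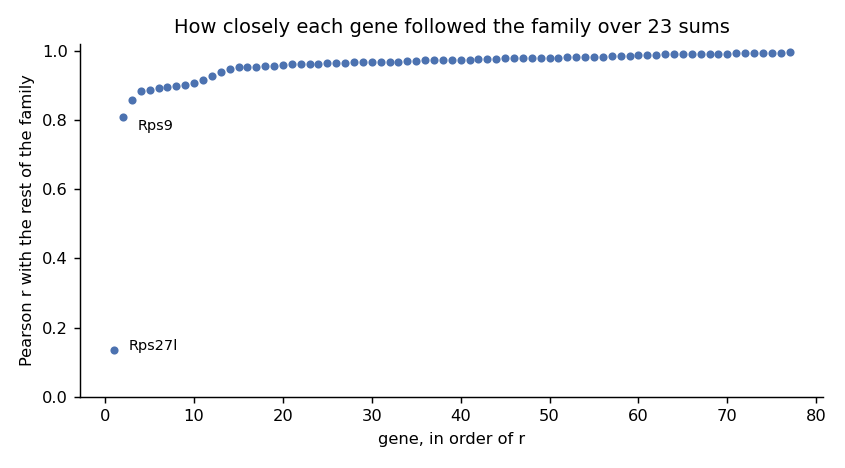
Pearson r (vertical axis) between the log2 CPM of each of 77 members and that of the rest of the family over 23 sums of lineage and library, with members in order of r on the horizontal axis. Rps27l lies alone at 0.137 and Rps9 at 0.809, while 63 members lie at 0.95 or above.

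Another fit used the summed family UMIs of each sum as its size, so that a difference is relative to the family. Between lymphoid and myeloid lineages, 2 of 80 members were then higher (Rpl12, Rps15a) and 5 lower (Rps27l, Rps9, Rps25, Rpl3l, Rpl39l). On this scale 5.24% of all genes were called higher and 70% lower, and 75.3% in either direction. At an unadjusted p under 0.05, edgeR had 20 members higher and 17 lower. In neutrophils against the mean of the others it had 18 higher and 22 lower. In NK cells Rpl3l was the 1 member lower within the family and 0 were higher (15.4% and 7.48% of all genes, 7 members higher at an unadjusted p under 0.05 with edgeR and 0 called with DESeq2). Over the 6 lineages, each against the others, 20 members were called in at least 1, and 9 with neutrophils left out. In single lineages 22.9% (NK cells) to 66.1% (neutrophils) of all genes were called in either direction. The share of all genes called in at least 1 lineage is not given, so the 20 cannot be set against it. The members are given below by subunit.

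In the small subunit, Rps27l differed most. It is a near copy of the zinc-finger protein Rps27, and is known as a target of the tumor suppressor Trp53. As a level it was 81.3, 496, 503 and 535 CPM in neutrophils, 169, 274, 198 and 381 CPM in microglia, 386, 303, 313 and 432 CPM in macrophages, and 214, 275, 249.2 and 243 CPM in T cells. It thus lacked the lymphoid rise of the family, and in tumor libraries its highest levels were in neutrophils. In the level fit, 76 of 80 members were called lower in neutrophils than in the mean of the other lineages (19.4% of all genes). Per 1000 family UMIs it had 2.08, 4.18, 3.87 and 4.28 in neutrophils and 0.516, 0.803, 0.755 and 0.701 in T cells, with no overlap. Relative to the family it was higher in neutrophils by 1.85 (log2, SE 0.21, adjusted p = 2.8e-08, edgeR; 7 members higher and 9 lower, beside 64% and 2.11% of all genes). It was lower in lymphoid cells by a log2 difference of -1.48 (SE 0.17, adjusted p = 5.7e-08, edgeR), in T cells by -0.99 and in B cells by -0.98. In B cells it had 350 CPM in healthy brain against 188 to 215 CPM in the tumors, and the B cell call was lost without the anti-CTLA-4 library. In naive-marker T cells it stood at 184, 200, 148 and 147 CPM against 304, 268 and 258 CPM in experienced cells of the tumor libraries. There it was the 1 member called within the family (log2 difference -1.12, SE 0.16, adjusted p = 1.6e-06, edgeR; 0 higher, 14 higher at an unadjusted p under 0.05, and 0 with DESeq2; all genes 1.54% higher and 41.3% lower).

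Rps27 itself shared with Rps27l its highest lineage mean within the family, but not its lowest. Per 1000 family UMIs it held 37.9, 36.5, 33.1 and 29.3 in neutrophils, its highest lineage, and 20.4, 15.4, 15.2 and 11.5 in microglia, its lowest. The microglia were lower by a log2 difference of -0.68 (SE 0.10, adjusted p = 3.6e-06, edgeR), a call lost with neutrophils left out. In microglia 3 members were higher and 1 lower within the family (59.1% and 6.15% of all genes).

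Rps9, a protein near the entry of the messenger RNA channel, held 47.2, 24.4, 23.8 and 25.7 per 1000 in neutrophils and 18.8, 24.9, 24.1 and 22.5 in macrophages. T cells had 10.9, 12.7, 13.2 and 12.7 and NK cells 12.6, 12.4 and 12.9, below every myeloid value. B cells overlapped microglia: their log2 shares minus the gene's mean over the 23 sums were -0.231 to -0.184, against -0.219 to -0.00285. Relative to the family Rps9 was higher in neutrophils by 0.96 (log2, SE 0.13, adjusted p = 6.2e-07, edgeR). In the mean of the lymphoid lineages it was lower by -0.73 (SE 0.11, adjusted p = 1.2e-06, edgeR). Rps25, of the head of the small subunit, held 14.7, 14.1, 13.2 and 16.8 in neutrophils and 7.09, 6.39, 6.61 and 7.21 in T cells. Its B cell values, -0.351 to -0.0269 on that log2 scale, lay below every myeloid value. Its differences were 0.77 in neutrophils and -0.70 in lymphoid cells. Without neutrophils the lymphoid differences of both fell to -0.54 and -0.55, under 1.5-fold. Rps27a, made as a fusion with ubiquitin, held 47.6 in healthy neutrophils against 21.8 to 23.5 in tumor neutrophils, and its difference of 0.73 in neutrophils fell to 0.46 without healthy brain, which ended the call.

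Rps15a was the small-subunit member called higher in lymphoid cells. It held 22.9, 24.9, 27.2 and 25.7 per 1000 in T cells against 12.2, 11.9, 13.7 and 13.1 in neutrophils, with microglia at 15.1 to 16.5 and macrophages at 15.1 to 17.1. The difference was 0.61 (log2, SE 0.07, adjusted p = 4.5e-08, edgeR), and by 0.51 without neutrophils, which is under 1.5-fold. Rps20, of the head of the small subunit, was highest in B cells with 20.6, 23.1, 25.9 and 23.3, above every value of another lineage. The B cell difference was 0.68 (SE 0.11, adjusted p = 3.2e-05, edgeR; 1 higher and 2 lower beside 4.48% and 53.6% of all genes), and 0.56 without neutrophils, no longer called. In neutrophils Rps4x, encoded on the X chromosome, was lower by -0.88 and Rps18 by -0.67. Rps4x held 8.34, 5.04, 7.17 and 6.68 there against 11 to 14.6 in microglia.

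In the large subunit, Rpl12 had the widest range of the parent genes. Per 1000 family UMIs it held 14.8, 13.5, 13.3 and 12.3 in T cells, 11.6, 12.3, 12.3 and 11.9 in B cells, 9.07, 9.70, 10.1 and 10.4 in microglia, 5.80, 6.41, 6.34 and 6.45 in macrophages, and 2.83, 5.73, 6.17 and 6.01 in neutrophils. T cells lay above microglia and both above macrophages, with no overlap. As log2 share minus the gene's mean over all sums, NK cells of the tumor libraries had 0.2178, 0.1535 and 0.2508. Microglia had 0.03265, 0.1295, 0.1814 and 0.2372 on that scale, so NK cells overlapped them. B cells (0.3838 to 0.4769) and T cells (0.4772 to 0.7387) lay above both. Rpl12 was higher in the mean of the lymphoid lineages by 0.79 (log2, SE 0.10, adjusted p = 3.2e-07, edgeR). In T cells it was higher by 0.73, as the 1 member higher beside 2 lower (6.37% and 53.1% of all genes). It was lower by -0.97 in neutrophils and by -0.62 in macrophages (2 higher and 1 lower beside 16.7% and 15.6% of all genes). The T cell call was lost with neutrophils left out. An opposite-strand gene, Lrsam1, overlaps Rpl12, as Syngr1 overlaps Rpl3 and Trappc4 overlaps Rps25.

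Rpl3 and Rpl10a, the latter of the mobile stalk at the exit site, fell most within the family in neutrophils, by -1.06 and -1.03 (log2). Rpl3 held 3.21, 3.75, 4.3 and 3.08 per 1000 there against 7.69 to 8.08 in microglia and 7.11 to 8.15 in T cells. Rpl10, which joins the large subunit late in its assembly, was lowest in T cells with 7.21, 7.96, 8.64 and 7.41, below every value of the other lineages, and highest in macrophages with 14.8, 16.1, 16.4 and 15.6. The T cell difference was -0.64 (SE 0.11, adjusted p = 3.2e-05, edgeR).

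The acidic stalk protein Rplp1 was highest in microglia, with 29.4, 25.7, 30.1 and 24.2 per 1000 against 12.4 to 14.1 in macrophages. The microglia difference was 0.66 (log2, SE 0.12, adjusted p = 3.6e-05, edgeR), and 0.55 without healthy brain, no longer called. Rps29 of the small subunit was also higher in microglia than in the mean of the others, with 58.1, 47.1, 47.4 and 39.5, by 0.60 (SE 0.10, adjusted p = 7.7e-06, edgeR). Neutrophils lay above microglia with IgG (49.4) and with depletion (41.3), and below them in healthy brain and with anti-CTLA-4. The microglia call of Rps29 was lost without healthy brain (0.55) and without anti-CTLA-4 (0.56).

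**Figure D3:**
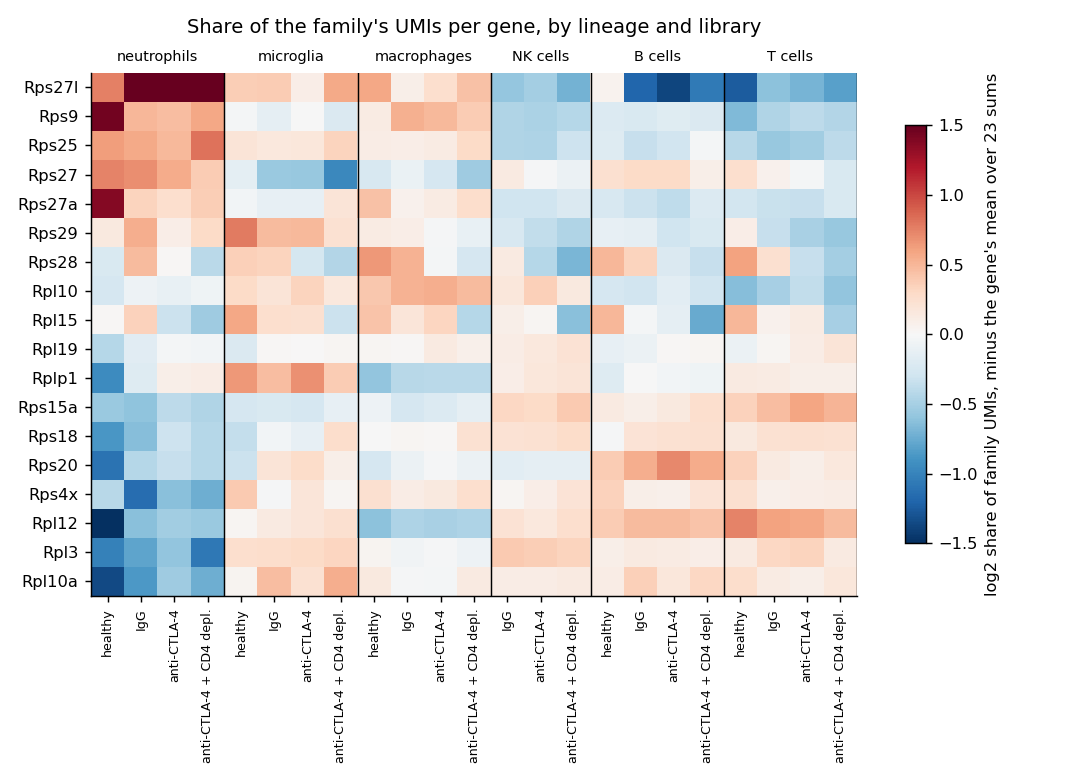
Colour gives log2 of each gene's share of family UMIs minus its mean over the 23 sums of lineage (blocks) and library (columns), for 18 named members in rows ordered by their values. Colours end at 1.5 in either direction, so values beyond that, such as Rps27l in tumor neutrophils, share the darkest red. Rps27l and Rps9 run from red in neutrophils to blue in lymphoid cells, except Rps27l in B cells of healthy brain (0.0549). Rps9 is pale in B cells (-0.231 to -0.184). Rpl12 and Rps15a run the other way, and Rps28 and Rpl15 change with the library inside each block.

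The copies had patterns of their own at low levels. Rpl3l, the paralog of Rpl3 known from heart and skeletal muscle, lies at chr17:24727820-24736143 on the plus strand (GENCODE vM21, GRCm38). It stood at 39.2, 38.1, 24.8 and 23.9 CPM in neutrophils and at 19.8, 8.96, 7.91 and 9.35 CPM in macrophages. Microglia had 4 UMIs in all libraries together, and T, NK and B cells together had 3. Summed over libraries, neutrophils had 3.28 times the level of macrophages (exact conditional-binomial 95% interval 2.44 to 4.41, counting error only), 82.4 times that of microglia (30.9 to 310) and 183 times that of lymphoid cells (60.4 to 907). At least 1 UMI was found in 26 of 180, 3 of 54, 4 of 50 and 23 of 487 neutrophils. The gene thus moved in the direction opposite to Rpl3. Msrb1, a neighbour on the same strand that starts 498 bases after the end of Rpl3l, was likewise highest in neutrophils and next in macrophages, with 2489, 1678, 2135 and 2124 CPM in neutrophils, 910 to 1275 CPM in macrophages, 24.0 to 135 CPM in microglia and 33.6 to 70.4 CPM in lymphoid cells. Whether reads of one were counted for the other was not tested. Macrophage sums also held 268 to 4807 CPM of neutrophil markers, most in healthy brain, where macrophage Rpl3l was highest (12 UMIs), and their part in it was not tested.

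Rpl39l, the paralog of Rpl39 known from the testis, had its highest mean level in microglia. It had 6.30, 8.14, 11.03 and 5.42 CPM there (74 UMIs), 6.76, 2.44, 2.12 and 3.20 CPM in T cells, 3 UMIs in macrophages and 0 in B cells. Summed over libraries, the microglial level was 28.0 times that of macrophages (9.23 to 139), 12.8 times that of NK cells (3.43 to 108), 2.99 times that of neutrophils (1.31 to 8.42), 2.30 times that of T cells (1.52 to 3.55) and at least 5.67-fold higher than in B cells, taken at 3 UMIs. UMIs were found in 2.02%, 4.06%, 2.99% and 2.18% of microglia, so the gene was seen in few cells. In healthy brain T cells lay above microglia through 6 UMIs that all came from 1 of 137 cells, and a neutrophil value of 12.4 CPM with anti-CTLA-4 rests on 2 UMIs. The call of Rpl39l as lower in lymphoid cells within the family was lost without the depletion library.

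Rpl6l was spread over all lineages. It stood at 23.1, 15.1, 15.8 and 20.8 CPM in macrophages and at 15.8, 17.1, 15.1 and 20.6 CPM in T cells. Its call as higher within the family in macrophages (0.69, SE 0.25, adjusted p = 0.035, edgeR) was lost when any of the 4 libraries was left out. As the end of its transcript is found whole in other genes, whether its UMIs came from those genes was not tested.

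**Figure D4:**
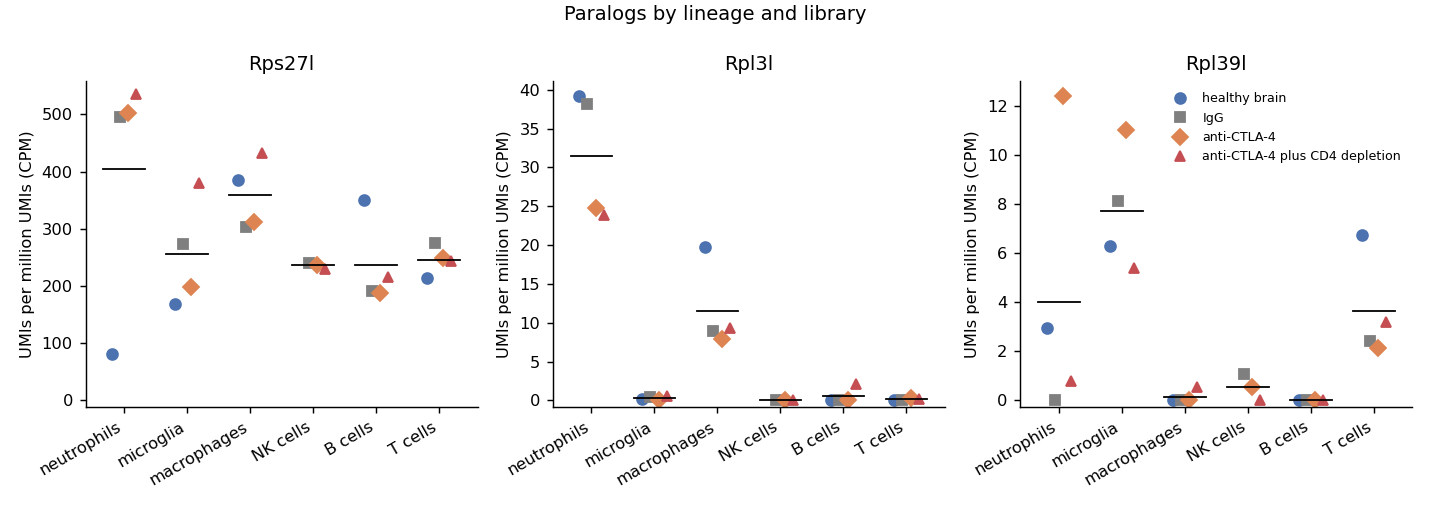
Level of 3 paralogs (vertical axes, CPM, each with its own scale) by lineage, with 1 symbol per library and a bar at the mean. Rps27l is present in every lineage and reaches 535 CPM in neutrophils, Rpl3l lies between 23.9 and 39.2 CPM in neutrophils and near 0 in lymphoid cells, and Rpl39l lies between 5.42 and 11.03 CPM in microglia.

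Between conditions only values can be given, since each is 1 library, and intervals cover counting error alone. A gene was counted as changed at 1.5-fold in CPM, and only genes whose UMIs in the pair of libraries summed to 50 or more were compared. In microglia the family share was lowest in healthy brain and highest with depletion. From healthy brain to IgG it went from 10.6% to 17.1%, a ratio of 1.62 (1.61 to 1.62), with 59 of 77 members higher beside 8.38% of all genes and 0 lower beside 30.8%. Rps20 went from 1344 to 3106 CPM (2.31-fold), Rps2 from 878 to 1928 CPM (2.20-fold) and Rpl10a from 778 to 1683 CPM (2.16-fold). From anti-CTLA-4 to depletion the microglial share went from 14.97% to 20.9%, a ratio of 1.40 (1.39 to 1.40), with 25 of 77 members higher beside 12% of all genes and 0 lower beside 18.6%. With median-of-ratios scaling 38 were higher. Rps2 (1.97-fold), Rps27l (1.93-fold) and Rpsa (1.89-fold), the laminin receptor precursor, led. Microglial marker genes moved the other way, with 30150, 11742, 15559 and 10238 CPM for all 10 together, and the macrophage markers stood at 55.7, 327, 217 and 806 CPM. The mitochondrial share was 1.58%, 2.08%, 1.57% and 2.83%. The part of these in the ribosomal share was not tested.

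Neutrophils went from 3.91% in healthy brain to 11.9% with IgG, a ratio of 3.03 (2.98 to 3.09), with 75 of 77 members higher, beside 51.7% of all genes, and 0 lower beside 17.6%. Rpl14 went from 83.2 to 712 CPM and Rpl22 from 172 to 1335 CPM, while Rpl37 (1.46-fold) and Rps27a (1.47-fold) moved least. The share of marker genes given above fell between the same libraries, and its part in these ratios was not tested. T cells went the other way, from 41.5% to 34.3%, a ratio of 0.827 (0.823 to 0.830), with 3 of 78 members lower (Rps29, Rpl15 and Rps28; 6.93% of all genes) and 0 higher beside 25.5%. With median-of-ratios scaling 19 members were lower there, and 9 with thinned cells. Naive-marker cells made up 119 of 137 T cells in healthy brain and 83 of 359 with IgG, and within them the share was 43.6% and 40.3%. In naive-marker cells with Cd4 UMIs it was 43.4% and 32.6%, and in those with Cd8a or Cd8b1 UMIs 44.9% and 46.3%, and the part of this makeup in the T cell ratio was not tested. B cells rose from 27.4% to 35.8% (1.31, 1.30 to 1.32), with 5 members higher beside 6.76% of genes and Rps27l the 1 lower beside 30.5%. Macrophages had a ratio of 1.11, with Rpl6l as the 1 lower beside 21.5%, at 14 and 37 UMIs.

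The other shares were also compared among the tumor libraries. Anti-CTLA-4 against IgG gave 0.962 in T cells, 0.935 in NK cells, 0.873 in microglia, 0.920 in macrophages, 1.11 in B cells and 1.09 in neutrophils. Depletion against anti-CTLA-4 gave 1.05 in T cells, 1.12 in NK cells, 0.925 in B cells, 1.22 in macrophages and 0.964 in neutrophils, and these comparisons share the anti-CTLA-4 library. With anti-CTLA-4, no member reached 1.5-fold higher in T cells (3.29% of all genes), NK cells (4.79%), microglia (5.51%), macrophages (3.26%) or B cells (7.76%), and none was that much lower in B cells (7.6%) or neutrophils (8.92%). With depletion, 0 members were higher or lower by 1.5-fold in T cells (3.46% and 8.99% of all genes), NK cells (3.26% and 7.47%), macrophages (9.08% and 15.3%) and neutrophils (23.5% and 18.2%), and 0 were higher in B cells (10.3%). The nearest to it in macrophages was Rpl8 with 1.46-fold.

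Rps28 and Rpl15 were the members whose place in the family shifted the same way over the lineages between tumor libraries. Rps28, a small-subunit protein near the exit of the messenger RNA channel, was the only 1 of 77 members that was at least 1.1-fold lower relative to the family in all 6 lineages with anti-CTLA-4 against IgG. Its ratios to the family lay between 0.663 and 0.725, with the highest upper limit of a counting interval at 0.853. Per 1000 family UMIs it held 16.6, 16.3, 10.8 and 9.54 in microglia, 19.6, 15.2, 10.2 and 9.07 in T cells, and 11.04, 18.0, 13.1 and 9.77 in neutrophils. In T cells, NK cells, microglia and macrophages it was the 1 member at least 1.5-fold lower as a level (3.7%, 5%, 5.17% and 5.19% of all genes), and in neutrophils Rps4x was the 1 higher (8.83%). From anti-CTLA-4 to depletion its family ratios were 0.749 to 0.916, again lower in all 6.

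Rpl15, which acts early in large subunit assembly, was lower relative to the family in all 6 lineages from anti-CTLA-4 to depletion, with ratios of 0.595 to 0.863. In neutrophils, the highest of these ratios, the counting interval of 0.631 to 1.20 includes no difference, and in the other 5 lineages it lies below 1. Rpl15 held 4.11, 3.26, 3.24 and 2.19 per 1000 in microglia, 3.88, 2.88, 2.99 and 1.94 in T cells, and 3.89, 2.70, 2.50 and 1.63 in B cells. In B cells Rpl15 and Rpl27 were the 2 members at least 1.5-fold lower (6.55% of all genes). From healthy brain to IgG no member shifted by 1.1-fold in all lineages in the same direction. Condition and library cannot be told apart for these shifts. Opposite-strand genes overlap both, Kank3 at Rps28 and Nkiras1 at Rpl15, and 58.5% of the 60-base stretches at the end of Rpl15 occur in other genes. The start window of Rps28 printed above holds no pyrimidine run and that of Rpl15 holds the longest of those shown.

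**Figure D5:**
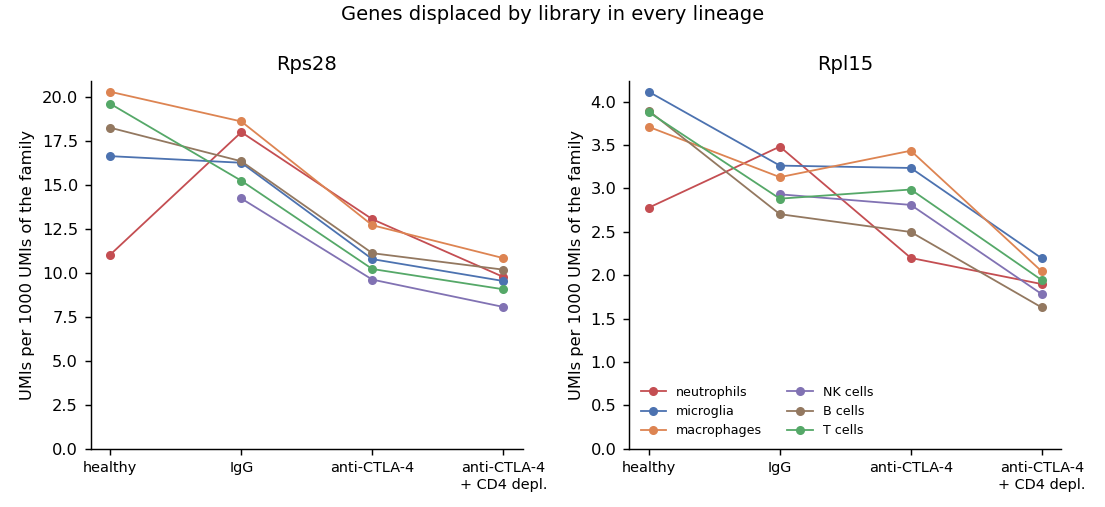
UMIs of Rps28 (left) and Rpl15 (right) per 1000 UMIs of the family (vertical axes) in the 4 libraries, with 1 coloured line per lineage that joins its values and no NK value in healthy brain. Rps28 is lower with anti-CTLA-4 than with IgG in all 6 lineages, and Rpl15 is lower with depletion than with anti-CTLA-4 in all 6, while neutrophils of healthy brain lie below the other lineages in both panels.

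The X-linked members Rpl39, Rpl10, Rpl36a and Rps4x can be read against the difference in Xist between libraries. From healthy brain to IgG, relative to the family, Rps4x was lower in each of the 5 lineages compared, with ratios of 0.893 in T cells, 0.834 in B cells, 0.753 in microglia, 0.911 in macrophages and 0.604 in neutrophils (0.475 to 0.762). The other X-linked members went in no shared direction, as Rpl39 with 1.09 in microglia and 0.962 in macrophages, and Rpl10 with 1.1 in T cells and 0.937 in microglia.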

How the data were processed

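Per the labels' protocols, libraries were made with a 10x Chromium 3′ kit. Per the submitters' processing notes, the authors used Cell Ranger and the mm10 build, and the file headers give software version 3.1.0. The authors deposited unnormalized UMI counts in a gene by barcode matrix. Barcodes needed 200 or more genes and no more than 10% of UMIs from mitochondria, and Scrublet (scanpy 1.11.5) doublets were removed by its automatic threshold, or by the top 5% of scores in the anti-CTLA-4 and depletion libraries, where that threshold called 8 and 2. A lineage needed at least 3 of its 10 markers and 2 more than any other lineage. Of the T cell markers 7 and of the B cell markers 9 were in the tables. T cell states needed at least 2 markers. Total counts per library were 7950206 to 21471565.

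UMIs were summed per lineage and library (at least 20 cells). edgeR 4.0.16 (R 4.3.3) fitted lineage and library as terms after filterByExpr, with TMM or with family UMIs as library size, and p-values were adjusted over all genes by Benjamini-Hochberg. Lineages within a library share its cells' processing. The 4 libraries are different conditions, so p-values measure how lineage differences vary over these libraries and not over replicates. The contrast of T cell states and the NK cell values rest on 3 libraries. DESeq2 1.42.0, other filters, lineage rules, scalings, thinning and left-out libraries were alternatives. The test recovered 90.3% of 2-fold changes between lymphoid and myeloid sums on simulated data. The plan's myeloid mean named conventional dendritic cells, which had no sum of 20 cells. Named members were those highest and lowest in level, called members with the largest folds within the family, those most and least like the family, copies with their parents, X-linked members, and the leaders of library comparisons and lists. Members and lists were chosen with earlier results of these data known. Coordinates come from GENCODE vM21. A few named genes are not reported here.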

Additional observations from a re-analysis of the deposited data

Results flagged for a closer look

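From healthy brain to IgG, the ratio of ribosomal shares was 1.31 in B cells, 1.62 in microglia, 1.11 in macrophages and 3.03 in neutrophils, against 0.827 in T cells. From IgG to anti-CTLA-4 it was 1.11 in B cells against 0.873 in microglia. Lineages of the same libraries thus moved in opposite directions, but with 1 library per condition these differences between lineages were not tested.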

How the results depend on the processing

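Of 377 alternative values for members named within the family, 348 kept direction and call, 29 lost the call and 0 changed direction. Of 72 alternative lineage shares, 71 moved by less than 1 SD, and the NK share became 27.4% as a median over cells. Without each library in turn, mean shares ranged over 33.3% to 37.4% in B cells, 28.4% to 30.1% in NK cells, 34.0% to 36.8% in T cells, 21.9% to 23.6% in macrophages, 14.2% to 17.7% in microglia and 9.43% to 12.5% in neutrophils. Lymphoid against myeloid, members lower in level numbered 1 to 2 without a library and 0 after thinning. Within the family, the members higher numbered 1 with the looser marker rule, 4 after thinning and 1 without neutrophils, and those lower numbered 3 without neutrophils and 4 to 5 without a library. Members called within the family in at least 1 lineage numbered 9 without neutrophils and 16 to 19 without a library. In naive-marker T cells, members higher numbered 14 to 34 and lower 0 to 1 without a library, and 17 and 1 with no filter. At 2-fold, library comparisons of IgG with healthy brain left 6 microglial members higher and 0 lower in macrophages and T cells, anti-CTLA-4 left 0 lower in microglia, macrophages and T cells, and depletion left 0 higher in microglia. With median-of-ratios scaling, IgG against healthy brain gave 2 higher and 0 lower in macrophages and 19 lower in T cells, anti-CTLA-4 gave 2 lower in microglia, and depletion gave 38 higher in microglia and 1 in macrophages. After thinning these were 1 and 0 in macrophages, 9 in T cells, 3 in microglia with anti-CTLA-4 and 1 in macrophages with depletion. The cause of these changes was not tested. For counts under alternatives, here and above, the shares of all genes are not given, so these counts cannot be set against them. No paired analysis was possible because each condition has 1 library. Depth limits Rpl3l, Rpl39l and Rpl6l, with few UMIs per sum.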

Other observations

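Cells that no lineage rule took had family shares of 19.7%, 25.7%, 26.2% and 32.8% (68, 165, 113 and 373 cells). Cells with markers of several lineages had 22.2%, 29.5%, 27.5% and 26.1% (38, 72, 50 and 168 cells). With depletion, 71 microglia with cell cycle markers had 21.9% against 20.7% in the others, and 41 such T cells had 30% against 35.2%.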
